A study of Nomascus leucogenys with 9 samples.

Results

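NF-kB is a family of dimeric transcription factors that B lymphocytes use to answer signals from the antigen receptor, CD40 and related receptors. Inhibitor proteins hold the dimers in the cytoplasm until a kinase complex marks the inhibitors for destruction (the canonical route), or until the kinase NIK triggers processing of the NFKB2 precursor (the alternative route). The factors in turn switch on genes for their own subunits, inhibitors and brakes. In lymphocytes immortalised with Epstein-Barr virus (EBV), the viral membrane protein LMP1 imitates an active CD40 receptor and is known to keep both routes running.

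The gene group described here has 10 members, chosen by a fixed list of human Ensembl identifiers. It holds the 5 subunit genes NFKB1, NFKB2, RELA, RELB and REL, the inhibitor genes NFKBIA and NFKBIE, the feedback gene TNFAIP3, the kinase gene MAP3K14 and the ubiquitin ligase gene BIRC3. All 10 identifiers were among the 15356 rows of the deposited table, and all 10 passed the filter on low rows, which kept 12590. RNA had been sequenced from EBV-transformed lymphocyte lines of 9 northern white-cheeked gibbons (Nomascus leucogenys), with 1 line and 1 library per animal. No treatment, genotype, age or sex is given in the sources used here, so the 9 lines form 1 group of 9 biological replicates. Numbers stand for the animals as follows: line 1 is Asia, line 2 is Bobby, line 3 is China, line 4 is Khao and line 5 is Melouprey. Line 6 is Nancy, line 7 is Phyllis, line 8 is Ricky and line 9 is Vok. Animal, culture and viral transformation coincide in each line and cannot be told apart.

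Levels are the authors' normalised counts on a log2 scale, and ppm means parts per 1000000 of the sum of a line's unlogged values. They are not corrected for gene length, so a gene is compared with itself across lines and not with another gene. Depth is unknown, because the libraries had been scaled to near-equal totals before deposit. Line 1 stood apart over the whole table, with an SD of 0.53 log2 units around the row medians, against 0.22 to 0.42 in the other lines, so results that rest on it are also given without it. The labelled cell type could not be checked, since none of the 21 marker symbols listed for it could be matched to an identifier. The other genes of the pathway, listed as 33 symbols, could not be matched either. In bulk RNA of a line, fewer cells of a type and less RNA per cell cannot be told apart.

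The group varied moderately among the animals. The SD over lines was between 0.16 and 0.35 log2 units, with a median of 0.28 for the 10 members and 0.22 for all rows kept. The lowest and highest lines were at least 2-fold apart for 2 of the 10 members, NFKB2 and REL, and the share over all rows kept was 26.4%. That count was 0 without line 1, where the share over all rows was 22.1%. NFKB2 lay just above this bound at 2.09-fold and REL at 2.01-fold, and TNFAIP3 lay just below it at 1.93-fold. No member had a line standing apart by Dixon's gap criterion, which found such a line in 10.1% of all rows kept. Each line had 1 library, so whether neighbours in the order of lines differ could not be tested.

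**Figure D1:**
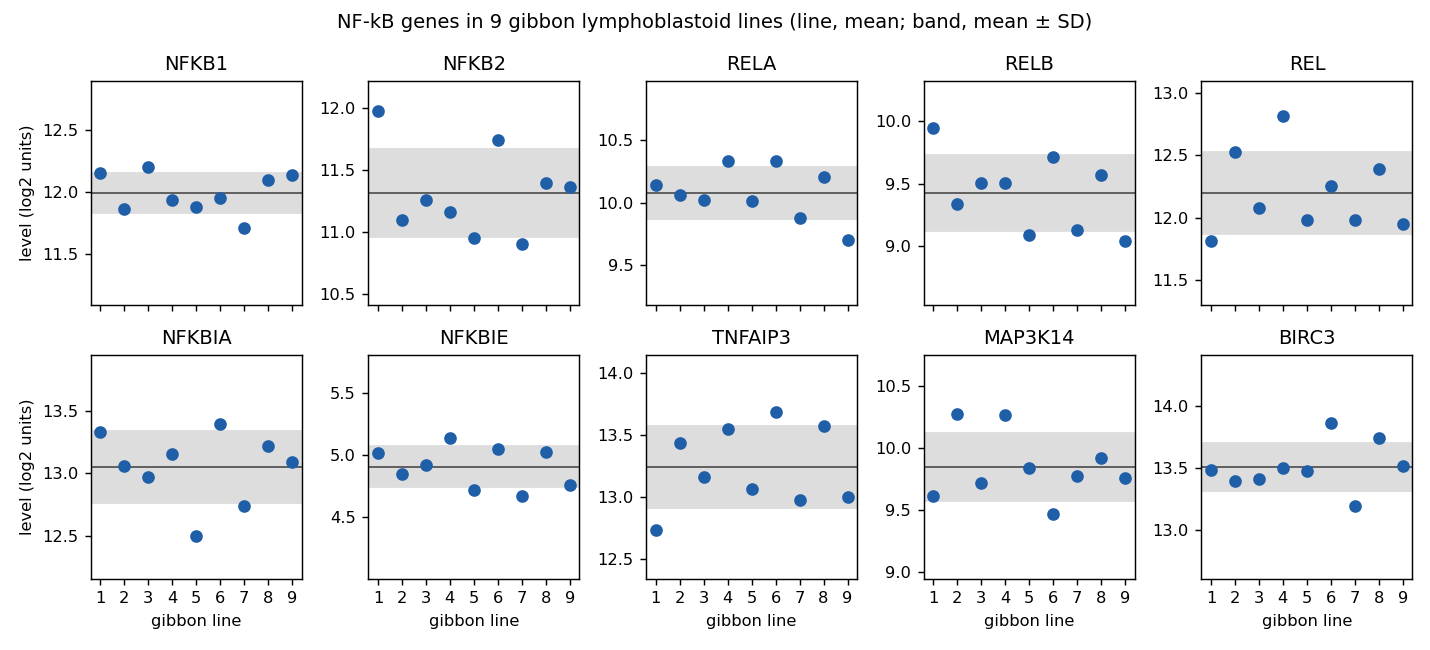
Level of each NF-kB gene (log2 units, vertical axis, each panel spanning the same number of log2 units) in gibbon lines 1 to 9. Points are libraries, the horizontal line is the mean and the band is the mean ± SD over the 9 lines. NFKB2 and RELB are highest in line 1, REL and TNFAIP3 are lowest there, and 4 genes are lowest in line 7.

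Among the subunits, the NFKB2 precursor gene of the alternative route had the widest spread over the 9 lines, a rank that rested on line 1. NFKB2 (ENSG00000077150) ran from 10.90 log2 units in line 7 through a median of 11.26 to 11.97 in line 1, with a mean of 11.31 ± 0.35 (SD, n = 9). Line 1 at 287.7 ppm and line 6 at 244.1 ppm were its high lines, and the other lines lay between 137.5 and 191.4 ppm. Its SD exceeded that of 76.8% of the rows kept, and of 85.0% of the rows at 100 ppm or more. RELB (ENSG00000104856), the partner that the processed NFKB2 protein binds, ran from 9.04 log2 units in line 9 through a median of 9.50 to 9.95 in line 1 (mean 9.43 ± 0.31, SD, n = 9). Lines 1 and 6 were again the highest, at 71.06 and 60.13 ppm, and lines 5, 7 and 9 formed the low end at 38.32 to 40.23 ppm. Without line 1, the range of NFKB2 was 0.83 log2 units in place of 1.07, and that of RELB 0.68 in place of 0.91. The SD of NFKB2 was then 0.27 log2 units, below that of REL at 0.31, which was the largest among the members.

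NFKB1, which encodes the precursor of the DNA-binding partner in classical dimers, was steadier. NFKB1 (ENSG00000109320) ran from 11.71 log2 units in line 7 through a median of 11.95 to 12.20 in line 3 (mean 11.99 ± 0.16, SD, n = 9). That is a 1.40-fold range, and its SD exceeded that of 28.5% of the rows kept and of 34.5% of the rows at 100 ppm or more. RELA (ENSG00000173039), the main activating subunit of classical dimers, ran from 9.70 log2 units in line 9 through 10.06 to 10.34 in line 4 (mean 10.08 ± 0.21, SD, n = 9). Line 6 lay beside line 4, at 92.56 and 92.57 ppm, and line 9 was lowest at 60.61 ppm.

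REL, which encodes c-Rel, the activating subunit prominent in lymphocytes, differed in its order of lines from NFKB2 and RELB. REL (ENSG00000162924) ran from 11.81 log2 units in line 1 through a median of 12.08 to 12.82 in line 4 (mean 12.20 ± 0.33, SD, n = 9). Line 4 held 517.3 ppm, line 2 held 420.4 and line 8 held 382.5, while line 1 was lowest at 258.0 ppm. Line 1 was thus the top line for NFKB2 and RELB and the bottom line for REL, as it was for TNFAIP3. Lines 2, 4 and 8 were also the highest lines for MAP3K14.

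The inhibitor gene NFKBIA, a direct NF-kB target whose product removes the dimers from DNA again, was abundant in every line. NFKBIA (ENSG00000100906) ran from 12.50 log2 units in line 5 through a median of 13.09 to 13.40 in line 6 (mean 13.05 ± 0.29, SD, n = 9). Lines 6 and 1 were highest, at 773.5 and 741.3 ppm, and lines 7 and 5 were lowest, at 490.5 and 416.6 ppm. NFKBIE (ENSG00000146232), the gene of a further inhibitor of the same family, ran from 4.67 log2 units in line 7 through 4.92 to 5.14 in line 4 (mean 4.91 ± 0.17, SD, n = 9). Its mean was 2.16 ppm, close to the filter of 1 ppm, and a filter of 5 ppm removed it. It was the only member removed by that filter.

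TNFAIP3 encodes A20, an enzyme that edits ubiquitin chains and brakes the canonical route. TNFAIP3 (ENSG00000118503) ran from 12.74 log2 units in line 1 through a median of 13.16 to 13.69 in line 6 (mean 13.24 ± 0.33, SD, n = 9). Lines 2, 4, 6 and 8 were high, at 790.5 to 944.0 ppm, and the other lines lay between 489.6 and 654.7 ppm. No line fell between these levels.

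MAP3K14 encodes NIK, the kinase that starts the alternative route, and BIRC3 encodes cIAP2, a ubiquitin ligase in the complex that keeps NIK protein low. MAP3K14 (ENSG00000006062) ran from 9.47 log2 units in line 6 through a median of 9.78 to 10.28 in line 2 (mean 9.85 ± 0.27, SD, n = 9). Lines 2 and 4 were its high lines, at 88.51 and 88.10 ppm, and the other lines lay between 50.65 and 68.99 ppm. BIRC3 (ENSG00000023445) ran from 13.19 log2 units in line 7 through 13.48 to 13.86 in line 6 (mean 13.51 ± 0.19, SD, n = 9). Apart from lines 6 and 8 above and line 7 below, its lines lay between 768.2 and 854.9 ppm. Line 6 was thus lowest for MAP3K14 and highest for BIRC3, NFKBIA and TNFAIP3.

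**Figure D2:**
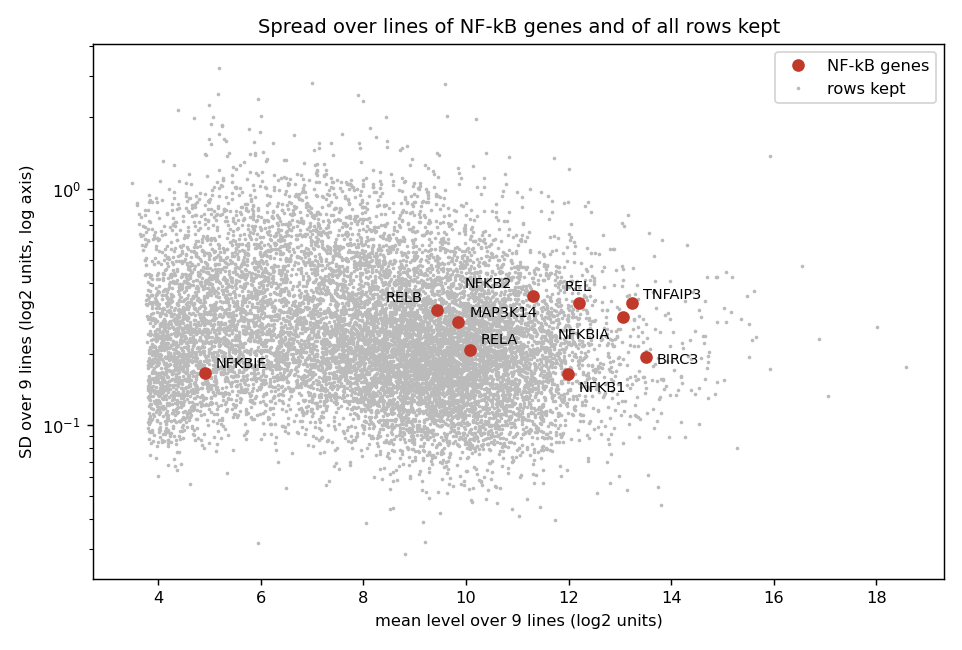
SD over the 9 lines (log2 units, log axis) against mean level (log2 units) for the 10 NF-kB genes (red) and all 12590 rows kept (grey). The 10 genes lie inside the cloud, with SDs of 0.16 to 0.35, and NFKBIE stands alone at a low level.

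Seen by line, the members' positions around their medians are given beside those of all rows kept. Line 8 lay above the median in 10 of 10 members and was the highest line in none of them, with deviations of 0.07 to 0.41 log2 units. Over all rows kept, line 8 was above the median in 39.4% of them. Line 7 lay below the median in 9 of the 10 members and was lowest in 4 (NFKB1, NFKB2, NFKBIE and BIRC3). Line 7 was below the median in 43.0% of all rows kept. Line 5 was below the median in 9 members, with NFKBIA furthest down at -0.59, and in 45.5% of all rows kept. Line 4 was above in 7 members and in 41.9% of all rows, and line 6 in 8 members and in 41.2% of all rows. Line 1 was above the median in 6 members and below it in 3, where the shares of all rows were 53.1% and 39.6%, with deviations from -0.42 for TNFAIP3 to 0.71 for NFKB2. These lines were picked after their values were seen.

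How far members moved together was measured by Pearson correlation across the 9 lines, for all 45 pairs of members. The r was positive in 35 pairs (77.8%), and its median was 0.47 for the pairs of members and -0.02 for members paired with all other rows. Exact permutation tests over the lines, two-sided, gave an unadjusted p under 0.05 in 9 pairs (20.0%), all with positive r. Among pairs of a member with any other row the share was 13.7%, or 6.62% when only positive r were counted. No pair passed after Benjamini-Hochberg adjustment over the 125845 row pairs that hold a member (0% called), with a smallest adjusted p of 0.17 among members and 0.095 in all. By Spearman's rho, 12 pairs had an unadjusted exact p under 0.05 (26.7%, against 12.0% of pairs with other rows), and none passed after adjustment. The pairs share members and lines and are not independent of each other.

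**Figure D3:**
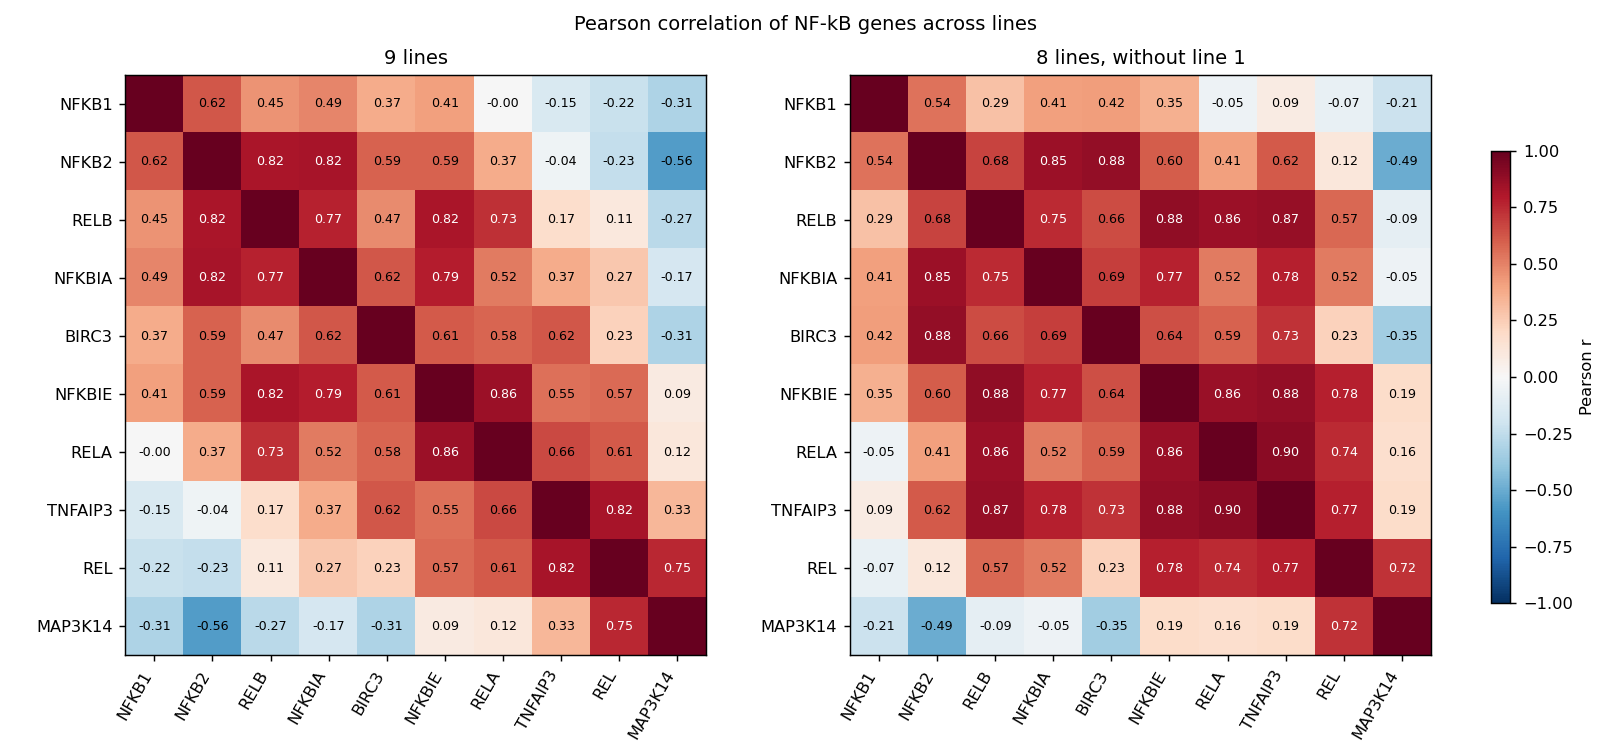
Pearson r (colour and printed value) of each pair of NF-kB genes across all 9 lines (left) and across the 8 lines other than line 1 (right). RELB and TNFAIP3 have r = 0.17 on the left and 0.87 on the right, whereas RELA and NFKBIE have 0.86 in both.

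The 3 pairs with the highest r were followed closely by a pair of subunits. RELA and NFKBIE had r = 0.86 (exact permutation p = 0.0029, adjusted 0.17, n = 9; rho = 0.93, exact p = 0.00075), and r was 0.88 without lines 4 and 9, the farthest from the RELA median. NFKB2 and NFKBIA had r = 0.82 (exact permutation p = 0.0075, adjusted 0.21, n = 9; rho = 0.88, exact p = 0.0031), and 0.80 without lines 1 and 6. REL and TNFAIP3 had r = 0.82 (exact permutation p = 0.0067, adjusted 0.21, n = 9; rho = 0.80, exact p = 0.014), and 0.95 without lines 2 and 4. With any 1 line left out, r stayed between 0.77 and 0.92 in these 3 pairs. NFKB2 and RELB also had r = 0.82 (exact permutation p = 0.0062, adjusted 0.20, n = 9; rho = 0.73, exact p = 0.031), and 0.46 without lines 1 and 6. With any 1 line left out, r for NFKB2 and RELB stayed between 0.68 and 0.96. Their ratio was furthest from its median in line 9, at 0.50 log2 units, against -0.17 to 0.20 in the other lines. NFKBIE sits near the filter, and the counting noise in its level could not be measured.

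The 3 pairs with the lowest r all held MAP3K14. NFKB2 and MAP3K14 had r = -0.56 (exact permutation p = 0.11, adjusted 0.47, n = 9; rho = -0.58, exact p = 0.11), which rested on lines 1 and 6, since r was -0.07 without them. MAP3K14 had r = -0.31 with BIRC3 (exact permutation p = 0.43, adjusted 0.76, n = 9; rho = -0.30, exact p = 0.44) and 0.080 without line 6. With NFKB1 it had r = -0.31 (exact permutation p = 0.42, adjusted 0.75, n = 9; rho = -0.57, exact p = 0.12). None of these negative values passed the test, adjusted or not. The highest r of MAP3K14 was positive, at 0.75 with REL (exact permutation p = 0.020, adjusted 0.28, n = 9, rho = 0.62, exact p = 0.086). It was 0.14 without lines 2 and 4, the farthest from the REL median.

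**Figure D4:**
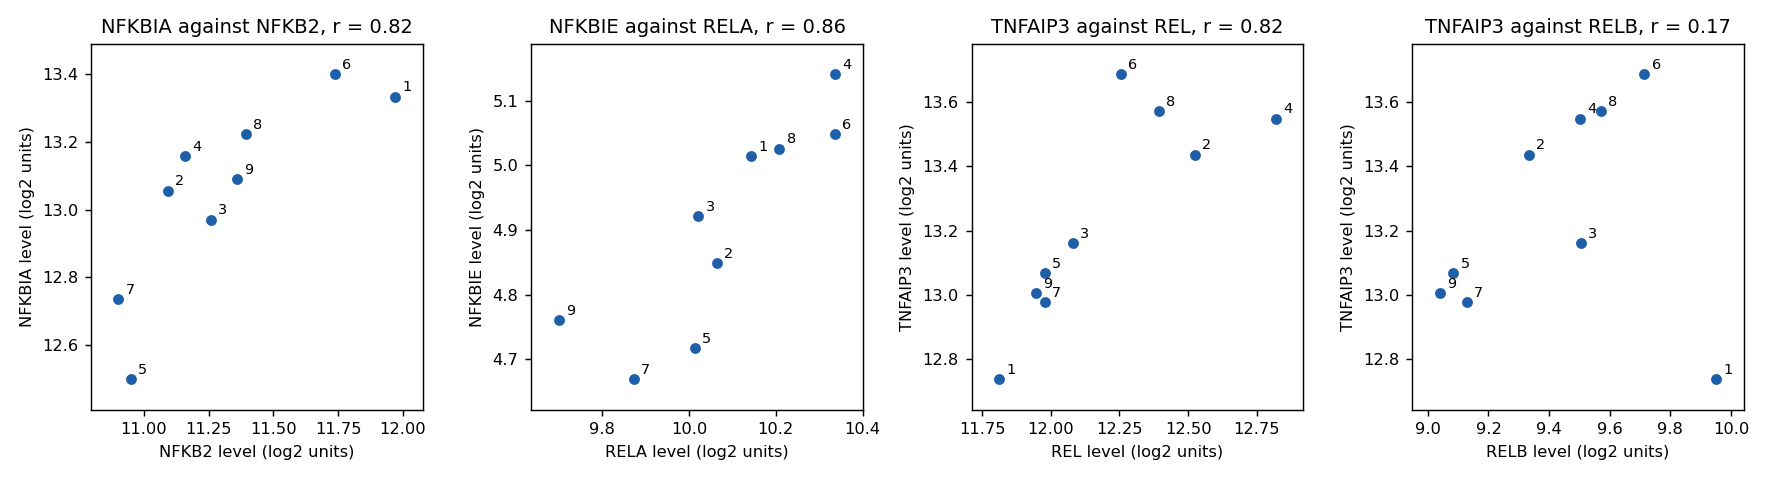
Levels (log2 units) of 4 pairs of NF-kB genes, with each point a line and its number beside it. In the first 3 panels the lines follow a rising course, and in the panel of TNFAIP3 against RELB line 1 lies at the bottom right, away from the other 8.

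Line 1 decided several of these relations. RELB and TNFAIP3 had r = 0.17 over the 9 lines (exact permutation p = 0.65, adjusted 0.87; rho = 0.30, exact p = 0.44) and r = 0.87 over the 8 lines without line 1 (exact permutation p = 0.013, adjusted 0.24). This pair was picked after its values were seen. For NFKB2 and TNFAIP3, r was -0.04 with line 1 and 0.62 without it, and for NFKBIA and TNFAIP3 it was 0.37 with line 1 and 0.78 without it. Without line 1, 16 of the 45 pairs had an unadjusted exact permutation p under 0.05 (35.6%, against 13.7% of pairs with other rows), 8 of them among the 9 found with all lines. None of them passed after adjustment, with a smallest adjusted p of 0.16. The first principal component of all rows kept, on which line 1 had the highest score, was then removed. This gave 17 pairs with an unadjusted permutation p under 0.05 (37.8%, against 16.0% of pairs with other rows). Again none passed the adjusted threshold, with a smallest adjusted p of 0.071. Removal ties the values of the lines to each other, so these p-values are not exact. That component held 34.2% of the variance and had r = 0.87 with NFKB2, 0.82 with RELB, -0.40 with REL and -0.63 with MAP3K14 across the 9 lines. It was computed from the same rows, so no test is given.

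Ratios of members within a line cancel any scaling factor of that library, if the values are plain logarithms of scaled counts. They describe how the make-up of the group differed between animals. The ratio of NFKB2 to REL had the widest range of the 45 pairs, 3.53-fold (SD 0.53 log2 units, n = 9). Relative to its median it was 1.16 log2 units up in line 1, 0.48 up in line 6 and 0.41 up in line 9, and it was -0.43 in line 2 and -0.66 in line 4. Next came NFKB2 to TNFAIP3, at 3.08-fold, with line 1 at 1.31 log2 units and the other lines between -0.32 and 0.43. Without line 1 these ranges were 1.14 and 0.75 log2 units, in place of 1.82 and 1.62. At the other end, the ratio of RELA to NFKBIE spanned 1.28-fold (SD 0.11 log2 units, n = 9). Relative to its median it lay between -0.10 and 0.10 log2 units in 8 lines and was -0.26 in line 9. NFKBIE sits near the filter, and a transformation that shrinks low rows would alter this ratio.

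**Figure D5:**
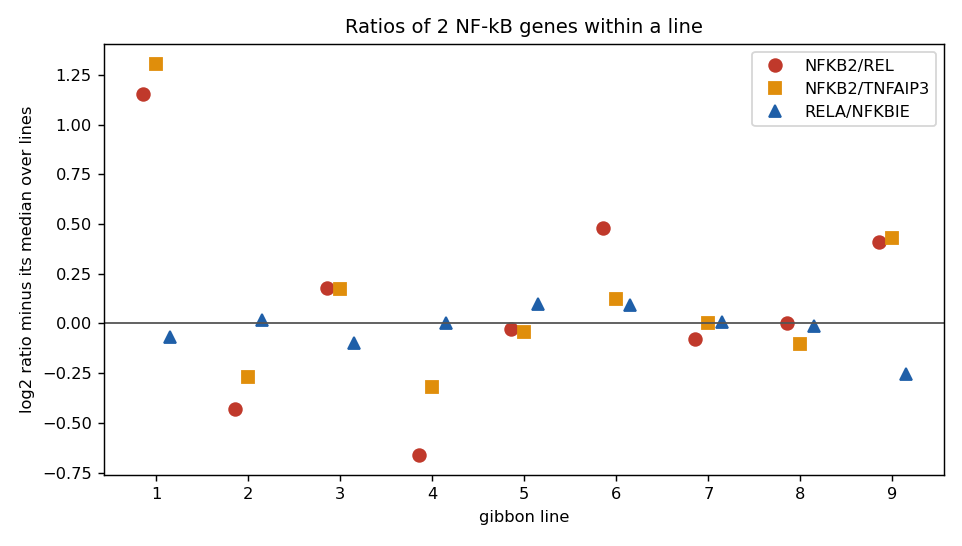
Log2 ratio of 2 NF-kB genes within a line, minus the median of that ratio over the 9 lines, for gibbon lines 1 to 9. NFKB2/REL and NFKB2/TNFAIP3 reach 1.16 and 1.31 in line 1, while RELA/NFKBIE stays between -0.26 and 0.10.

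The rows of the whole table most like NFKB2, the member with the largest SD over the 9 lines, are given by identifier, since no symbols could be matched. ENSG00000150776 had r = 0.97 with NFKB2 (exact permutation p = 5.5e-06, adjusted 0.095, n = 9; rho = 0.98, exact p = 5.0e-05), and r = 0.96 without lines 1 and 6. ENSG00000164323 had r = 0.97 (exact permutation p = 0.00019, adjusted 0.11, n = 9; rho = 0.93, exact p = 0.00075), and 0.84 without lines 1 and 6. In the opposite direction, ENSG00000168172 had r = -0.96 (exact permutation p = 0.00019, adjusted 0.11, n = 9; rho = -0.90, exact p = 0.0020), and -0.84 without these lines. ENSG00000133030 had r = -0.96 (exact permutation p = 0.00020, adjusted 0.11, n = 9; rho = -0.92, exact p = 0.0013), and -0.95 without these lines. The members differed in the share of the 12580 other rows with an unadjusted exact permutation p under 0.05. For all members together it was 13.7%, and no such share was computed for rows outside the group. The share was highest for RELB, at 24.8%, and RELA, at 21.1%, and lowest for MAP3K14, at 7.09%, and BIRC3, at 3.69%. None of these rows passed after adjustment.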

How the data were processed

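The authors deposited 1 table of normalised gene counts, per its title, with 15356 rows and 9 libraries. The deposited values had been normalised and log-transformed by the authors and were taken as log2, since the base is not stated. Trimmomatic, STAR, DESeq2 and edgeR are named in the submitters' processing notes, without versions or roles. No source used here gives the build, annotation or transformation. If the transformation shrinks low rows, their SDs are too small. Columns were matched to samples by name, and 0 per-sample columns were left unused.

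The filter kept 12590 rows, those averaging 1 ppm or more of the unlogged total. Every member was correlated with every kept row over the 9 lines. Exact permutation p-values (362880 orders, two-sided) were adjusted by Benjamini-Hochberg over all 125845 row pairs, with a threshold of 0.05. Other settings covered scaling, pseudocount, filter, each line left out, rank correlation and removal of the first principal component. Python 3.11.15 and numpy 2.4.6 were used, and the test was tested on simulated data. By the rule for named genes, all members, the 3 highest and 3 lowest pairs and 4 rows nearest NFKB2 are named. The members and lists were chosen with earlier results of these data known. Symbols were not looked up, since 0 of the identifiers matched the RefSeq gene table (Asia_NLE_v1).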

Additional observations from a re-analysis of the deposited data

Results flagged for a closer look

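Of the 45 ratios of 2 members within a line, 7 (15.6%) had a line apart from the others by Dixon's gap criterion, against 10.1% of single rows kept and about 1 in 20 by chance in independent sets. The 45 ratios share members and lines and are not independent sets. No share was computed for ratios of other rows, so an excess cannot be read from these figures. Line 1 was the outlying high line in 5 of the 7. The gap to the nearest line, as a part of the whole range, was 0.66 for RELB to TNFAIP3, 0.60 for NFKB2 to BIRC3 and 0.59 for RELA to TNFAIP3. It was 0.56 for NFKBIE to TNFAIP3 and 0.54 for NFKB2 to TNFAIP3. In line 1 these ratios lay 1.19, 0.78, 0.62, 0.63 and 1.31 log2 units above their medians, in the same order. The NFKBIA to BIRC3 ratio had line 5 apart on the low side, at -0.54 log2 units (gap 0.56). The TNFAIP3 to MAP3K14 ratio had line 6 apart on the high side, at 0.98 log2 units (gap 0.52). Line 1 also stood apart over the whole table (SD around the row medians 0.53 log2 units), and whether its library had a part in these ratios was not tested.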

How the results depend on the processing

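No member pair passed the adjusted test under any alternative (0 pairs). With 9 lines or fewer, 1 pair alone could not pass it, whatever its r. The count of pairs with an unadjusted exact permutation p under 0.05 was 9, and was 8 to 16 on leaving out a line (16 without line 1). Among pairs with other rows the share was 13.7% with all lines, and 11.1% to 13.7% on leaving out a line. With the first principal component removed the count was 17, against 16.0% of pairs with other rows, by a permutation p that is not exact. With a filter of 5 ppm it was 6, where fewer member pairs remained and 13.9% of pairs with other rows had such a p. The count of members spanning at least 2-fold was 2, where the share over all rows kept was 26.4%. It was 1 after quantile normalisation and 1 with 100 added on the linear scale, where the range of REL was 0.97 and 0.99 log2 units. On leaving out a line it was 0 to 2, with 0 without line 1 (22.1% of all rows) and 1 without line 4. The ranges of NFKB2 and REL were 0.83 and 0.87 without line 1, and that of REL was 0.71 without line 4. For the other alternatives no share over all rows was computed. The median SD of the members, 0.28 log2 units, was 0.24 to 0.30 on leaving out a line. The r of MAP3K14 and BIRC3, -0.31, ran from -0.47 (without line 7) to 0.080 (without line 6), and that of NFKB1 and MAP3K14, -0.31, was 0.098 with the component removed. The range of NFKBIE, 0.47 log2 units, was 0.11 with 100 added, since its level is low. The range of BIRC3, 0.67, was 0.47 without line 7, and that of the RELA to NFKBIE ratio, 0.36, was 0.20 without line 9. A filter of 5 ppm left out NFKBIE and its pairs. No paired analysis was possible because the 9 lines form a group with no contrast. With unknown depth, counting noise could not be removed from any spread.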
